A study of Mus musculus with 9 samples.

Results

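The 9 transcription factor genes here were grouped as linked to the Pax5-marked group of substantia nigra pars reticulata (SNr) neurons, 1 of 2 groups. The genes were followed through single cells of the developing mouse ventral midbrain. They were Pax5, Pax8, Sox21, Pou3f1, Pou3f2, Bcl11b, En2, Npas1 and Npas3, which are 9 of the 32695 entries of the count table other than spike-ins, and they were picked by symbol. The choice was made with earlier results of these data known. For Pou3f2, Npas1 and Npas3 a link to Pax5 in single cells was less clear than for the others. The limits on wells (2000 genes or more, a total no higher than 50000, a mitochondrial share under 15%) left 2035 of 3455 wells. All mice carried VGAT-Cre, the Ai14 reporter and Pitx3-GFP. The reporter makes tdTomato in any cell in which VGAT-Cre has acted, also at an earlier time, and GFP marks cells with Pitx3, a gene of dopamine neurons. Cells with tdTomato were sorted onto 4 plates at E16.5 and 3 plates at P0.5, E16 and P0 in the labels (VGAT plates, 1460 cells kept). Cells with tdTomato and GFP were sorted onto 1 plate at each stage (VGAT+Pitx3 plates, 575 cells kept), so this rarer population is over-represented. Several brains and litters were used at each stage, and the sources used here do not say which went onto which plate. Plates may thus share animals, and p-values below measure only the spread between plates.

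The SNr is the output station of the basal ganglia, and its GABA neurons fire tonically onto thalamus, tectum and brainstem. Some of these neurons arise in the midbrain, where Six3 and Foxp2 are used as marks, and others in the anterior hindbrain (rhombomere 1), where En1 and En2 are expressed. Pax5 and Pax8 are sister genes of the Pax2/5/8 family, which with the engrailed genes sets up the midbrain-hindbrain boundary, and Pax5 is otherwise best known as the commitment factor of B lymphocytes. Sox21 is a SoxB2 factor that counteracts SoxB1 factors such as Sox2 during neurogenesis. Pou3f1 (Oct-6, known from myelinating Schwann cells) and Pou3f2 (Brn-2, a proneural POU factor) are class III POU factors. Bcl11b (Ctip2) is a zinc-finger factor of corticospinal and striatal neurons, and Npas1 and Npas3 are bHLH-PAS factors of neurons.

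On GRCm38, 3 of the genes lie on chromosome 4 and 2 on chromosome 12. Pax5 covers chr4:44524757-44710487 on the minus strand, Pou3f1 chr4:124656807-124660655 on the plus strand and Pou3f2 chr4:22482780-22488366 on the minus strand. Bcl11b covers chr12:107910403-108003602 (minus strand) and Npas3 chr12:53248677-54072175 (plus strand). Pax8 lies at chr2:24420560-24475599 (minus strand), Sox21 at chr14:118233232-118237030 (minus strand), En2 at chr5:28165694-28172166 (plus strand) and Npas1 at chr7:16455721-16477728 (minus strand). The annotation places a gene on the opposite strand over 7 of the 9, all but Pou3f2 and Bcl11b. The strand setting of the counting is not stated, so reads from the stretch that such a pair shares cannot be told apart, while those outside it can. The 1 sizeable case was Gm2164, which overlaps the start of Pou3f1 and held 381 counts in all kept cells.

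Of the 9 genes, 7 have a promoter in the RefSeq table of GRCm38.p6, which holds 250 bases before and 50 after each start. Shown are those of Pax5, Pax8, Sox21 and Bcl11b, since these genes were found in the same cells and moved together between the sorts, and all lie on the minus strand. The windows are chr4:44710645-44710944 for Pax5, chr2:24475550-24475849 for Pax8, chr14:118236981-118237280 for Sox21 and chr12:108003365-108003664 for Bcl11b. The Pax5 window lies wholly upstream of the gene span given above, since its RefSeq start differs from the annotated one. Positions below are counted from the RefSeq start. Capitals mark matches on either strand to any of the letters searched, which were ATGCAAAT (the octamer of POU factors), TAATTA (a homeodomain core), ACAAAG (a SOX core), TGACCA, and GCGTG and ACGTG (cores of bHLH-PAS dimers).
Pax5: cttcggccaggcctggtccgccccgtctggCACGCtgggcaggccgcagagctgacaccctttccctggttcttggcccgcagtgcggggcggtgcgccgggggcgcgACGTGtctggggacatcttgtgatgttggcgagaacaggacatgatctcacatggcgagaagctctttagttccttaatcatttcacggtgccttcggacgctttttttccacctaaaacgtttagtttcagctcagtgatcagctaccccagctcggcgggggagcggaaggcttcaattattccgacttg
Pax8: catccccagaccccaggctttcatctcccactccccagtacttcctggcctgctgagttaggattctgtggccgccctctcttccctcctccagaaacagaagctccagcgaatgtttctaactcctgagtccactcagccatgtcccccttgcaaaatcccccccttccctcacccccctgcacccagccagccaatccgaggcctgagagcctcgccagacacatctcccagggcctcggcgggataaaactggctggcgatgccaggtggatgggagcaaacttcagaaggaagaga
Sox21: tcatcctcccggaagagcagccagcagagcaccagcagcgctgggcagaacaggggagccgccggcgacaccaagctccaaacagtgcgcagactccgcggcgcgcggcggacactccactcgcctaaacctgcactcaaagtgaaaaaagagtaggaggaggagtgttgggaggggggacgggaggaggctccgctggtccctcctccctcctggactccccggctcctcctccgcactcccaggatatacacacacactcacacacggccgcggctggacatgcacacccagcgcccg
Bcl11b: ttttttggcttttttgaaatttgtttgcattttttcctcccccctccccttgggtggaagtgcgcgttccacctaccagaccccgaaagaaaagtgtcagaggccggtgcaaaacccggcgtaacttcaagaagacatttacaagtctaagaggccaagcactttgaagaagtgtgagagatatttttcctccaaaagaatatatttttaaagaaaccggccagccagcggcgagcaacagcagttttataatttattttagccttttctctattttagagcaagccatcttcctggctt
Among these windows only that of Pax5 held a match, 1 to GCGTG at -220 and 1 to ACGTG at -142 from the start. Across the 7 promoters GCGTG was found in 2 (Pax5 and Pou3f2), ACGTG in 3 (Pax5, Pou3f2 and Npas3) and TGACCA in 1 (Npas1), and the other letters in 0. Of all 32851 promoters of the same length, 32.4% held GCGTG, 19.6% ACGTG, 13.6% TGACCA, 18.7% ACAAAG, 5.29% TAATTA and 1.74% ATGCAAAT. The windows of Pax5 and Sox21 were rich in CpG, with 23 and 22 in 300 bases at 59.0% and 65.7% GC, while those of Pax8 and Bcl11b held 7 and 9 at 59.3% and 43.0% GC.

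The kept cells of a VGAT plate summed to between 4001504 and 5403472 counts at E16.5 and between 1434306 and 3341351 at P0.5, and the VGAT+Pitx3 plates to 4605872 and 2335152. The median count per cell ran from 7039 to 33235.5 over the VGAT plates, both at P0.5, and P0.5 replicate 1 held only 44 cells. A sum of 3 counts corresponds to between 0.555 and 2.09 counts scaled to the plate total (CPM), the floor of a single plate. The labelled sort was seen in its markers: Pitx3 was at 0 to 0.370 CPM on VGAT plates and at 74.5 and 141.5 CPM on VGAT+Pitx3 plates, and the sum of 7 dopamine neuron genes was at 63.4 to 143.6 against 4027 and 5236 CPM. The sum of 5 GABA neuron genes was at 1687 to 2012 CPM on VGAT plates and at 1182 and 1385 CPM on VGAT+Pitx3 plates, where Gata3 and Tal1 were near 0. A sum of 4 astrocyte and radial glia genes varied from 3.25 to 356.9 CPM among VGAT plates, and its part in the results was not tested. Cell names carry a second plate label, which gives the other stage for 4 VGAT plates (E16.5 replicates 3 and 4, P0.5 replicates 1 and 3). The first label was used, which is spelled like the sample titles, and stage results are given with this limit.

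Levels were first set side by side on every plate, as TMM-scaled CPM of the summed cells. In such sums fewer cells of a type and less RNA per cell cannot be told apart. Pax5 stood at 51.7, 97.3, 300.5 and 205.4 CPM on E16.5 replicates 1 to 4, at 34.3, 114.4 and 26.0 CPM on the P0.5 plates, and at 1.58 and 10.8 CPM on the VGAT+Pitx3 plates of E16.5 and P0.5. Every VGAT plate lay above both VGAT+Pitx3 plates, and the highest VGAT plate (E16.5 replicate 3) and the lowest (P0.5 replicate 3) were far apart. Its sister Pax8 followed a like order of plates, with 4.43, 17.8, 28.3 and 26.0 CPM at E16.5, 13.5, 20.6 and 6.72 CPM at P0.5, and 0.452 and 1.35 CPM with Pitx3. Sox21 stood at 49.3, 46.9, 96.6 and 68.8 CPM at E16.5, at 12.8, 43.9 and 22.5 CPM at P0.5, and at 4.07 and 3.59 CPM with Pitx3. For all 3 genes the VGAT and VGAT+Pitx3 plates did not overlap.

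Bcl11b was at 119.2, 198.8, 416.8 and 394.0 CPM at E16.5, at 129.8, 106.1 and 81.2 CPM at P0.5 and at 58.1 and 17.0 CPM with Pitx3. Npas3 was at 1225, 951, 1970 and 1581 CPM at E16.5, at 379, 752 and 503 CPM at P0.5 and at 136.6 and 118.0 CPM with Pitx3. Npas1 had few counts, between 4.71 and 15.6 CPM on VGAT plates (median 10.5), and was found as 1 count on 1 VGAT+Pitx3 plate and 0 on the other. These genes too were lower on both VGAT+Pitx3 plates than on any VGAT plate. En2 went the other way: 17.7, 64.3, 79.9 and 95.2 CPM at E16.5, 27.6, 42.8 and 22.8 CPM at P0.5, and 488.0 and 442.7 CPM with Pitx3. Pou3f2 was likewise lower on VGAT plates, at 18.2 to 50.0 CPM (median 31.4), than with Pitx3, at 154.9 and 75.4 CPM. Only Pou3f1 overlapped, at 0.292 to 49.1 CPM (median 26.7) on VGAT plates and at 31.9 and 12.1 CPM on the others.

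**Figure D1:**
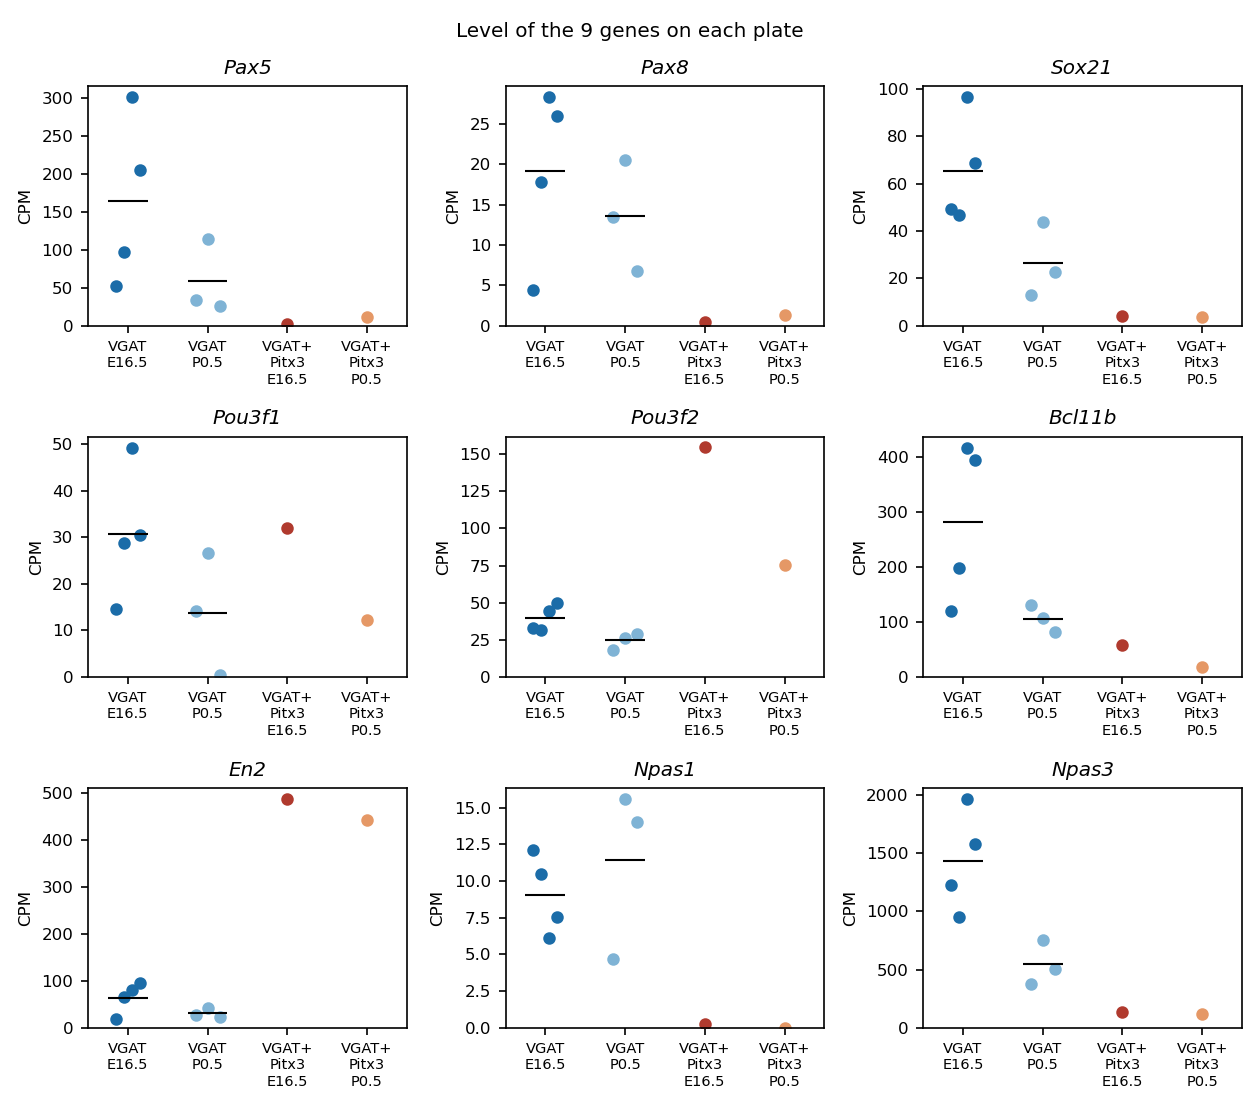
Level of each of the 9 genes on every plate (CPM, linear axis from 0), with 1 point per plate and a line at the mean of the VGAT plates of a stage. Pax5, Pax8, Sox21, Bcl11b, Npas1 and Npas3 lie lowest on both VGAT+Pitx3 plates, En2 and Pou3f2 lie highest there, and Pou3f1 overlaps.

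The population comparison asked how cells that also carry Pitx3-GFP differ from the other VGAT cells, with the stage as a term, in edgeR's quasi-likelihood test over 9 plates. Of the 9 genes 8 passed (adjusted p under 0.05), 6 lower and 2 higher with Pitx3, where 8.93% of all 14624 tested genes passed (4.20% lower, 4.73% higher). The same 8 had plates without overlap, as had 6.56% of all genes downwards and 7.86% upwards. The median log2 fold change was -2.79 over the 9 genes and -0.00 over all genes.

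Of the paired-box genes, Pax5 was lower on VGAT+Pitx3 plates by a log2 fold change of -4.43 (SE 1.05, edgeR adjusted p = 0.0134), from a mean of 118.5 ± 101.0 CPM (SD, n = 7) to 6.17 ± 6.49 CPM (n = 2). The few Pax5 counts with Pitx3 were spread unevenly: 7 cells at E16.5 held 1 count each, while at P0.5 the 24 counts came from 2 cells, 1 of them with 22. Pax8 was lower by -4.41 (SE 0.92, edgeR adjusted p = 0.00587), from 16.7 ± 9.11 to 0.899 ± 0.632 CPM, the latter from 5 counts in 5 cells. Both calls were lost without the VGAT+Pitx3 plate of E16.5 (-2.40, adjusted p = 0.379, and -3.22, adjusted p = 0.280) and with the replicate number as a block (-3.11, adjusted p = 0.0609, and -3.30, adjusted p = 0.0522, edgeR). Without the VGAT+Pitx3 plate of P0.5, or without cells of over 2 times the median count, the Pax5 difference was larger (-6.67, adjusted p = 0.0103, and -6.66, adjusted p = 0.001005, edgeR). In fits with 1 VGAT+Pitx3 plate, that plate is assumed to vary like the others.

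Sox21 was lower by -3.66 (SE 0.52, edgeR adjusted p = 0.000212), from 48.7 ± 28.0 to 3.83 ± 0.341 CPM. Bcl11b was lower by -2.39 (SE 0.43, edgeR adjusted p = 0.00194), from 206.6 ± 140.7 to 37.6 ± 29.0 CPM. Both no longer passed without the VGAT+Pitx3 plate of E16.5, with -2.88 (edgeR adjusted p = 0.0766) for Sox21 and -2.62 (edgeR adjusted p = 0.0610) for Bcl11b. The bHLH-PAS genes Npas1 and Npas3 fell by 5.76 and 2.79 on the log2 scale (SE 0.82 and 0.36, edgeR adjusted p = 0.00022 and 0.000101). With 258 counts against 1, the size of the Npas1 change depends on the prior count of the fit.

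En2, which marks the hindbrain-midbrain boundary region and is also kept by dopamine neurons, was higher with Pitx3 by 3.37 (SE 0.36, edgeR adjusted p = 1.40e-05), from 50.0 ± 30.2 to 465.3 ± 32.0 CPM. Pou3f2 was higher by 1.81 (SE 0.18, edgeR adjusted p = 6.41e-06), from 33.1 ± 10.8 to 115.1 ± 56.2 CPM. Pou3f1, the other POU gene, gave 0.04 (SE 0.60, edgeR adjusted p = 0.988), with 23.4 ± 15.5 and 22.0 ± 14.0 CPM. Calls for En2, Pou3f2, Npas1 and Npas3 were kept under each of 16 alternatives. Dopamine neuron markers and glutamate neuron markers (0 to 17.8 against 102 and 197 CPM) moved with the same contrast, and their part was not tested. Count totals of the VGAT+Pitx3 plates lay within the range of VGAT plates. At E16.5 the median count per cell of the VGAT+Pitx3 plate (13855) was below that of every VGAT plate of that stage (15593 to 22566), and its part was not tested.

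Relatives and other lineage factors are given from lists. Of 11 closest relatives, 3 were higher with Pitx3 (En1 3.35, Npas2 1.75 and Bcl11a 0.62 log2 fold change) and 3 were lower (Sox1 -3.51, Sox2 -2.93, and Sox14, which had 1980 counts on VGAT plates and 0 with Pitx3). En1 and En2 thus rose alike, and Bcl11a went against Bcl11b. Of 21 other regulators of midbrain and hindbrain GABA neurons, 19 were tested, 15 were lower (Gata2, Gata3, Tal1, Lhx1, Lhx5 and Six3 among them) and 1 was higher (Foxp2, 1.61), with a median of -5.04.

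The stage comparison, over the 7 VGAT plates, asked how levels at P0.5 differ from those at E16.5. In edgeR 3 of the 9 genes passed, all lower at P0.5, where 4.58% of 13639 tested genes passed (1.74% lower, 2.84% higher). Sox21 was at 66.0 ± 23.1 CPM (SD, n = 4) at E16.5 and 26.9 ± 16.3 CPM (n = 3) at P0.5, a log2 fold change of -1.30 (SE 0.33, adjusted p = 0.0449), without overlap. Bcl11b was at 284.8 ± 147.4 and 107.6 ± 24.9 CPM (-1.42, SE 0.36, adjusted p = 0.0438), with E16.5 replicate 1 inside the range of P0.5. Npas3 was at 1445 ± 445 and 555 ± 195 CPM (-1.38, SE 0.26, adjusted p = 0.0158), without overlap. Plates without overlap downwards were also seen for Pou3f2, making 3 of 9 genes where 10.1% of all genes did so. The median over the 9 genes was -1.30, against 0.02 over all genes.

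The other 6 genes did not pass, with values of -1.52 for Pax5 (adjusted p = 0.129), -0.59 for Pax8 (0.514), -1.37 for Pou3f1 (0.221), -0.65 for Pou3f2 (0.0896), -1.08 for En2 (0.149) and 0.42 for Npas1 (0.4999, edgeR). Leaving out 1 plate moved Pax5 between -2.49 and -1.05, Pax8 between -1.08 and -0.17 and Pou3f1 between -2.64 (without P0.5 replicate 2) and -0.57 (without P0.5 replicate 3), and none of the 3 passed in any of these fits. Calls at this stage step were not firm. With the replicate number as a block, Sox21 (-1.34, edgeR adjusted p = 0.0619) and Bcl11b (-1.09, edgeR adjusted p = 0.129) no longer passed, and with exonic counts alone Npas3 was not (-0.90, edgeR adjusted p = 0.0660). Leaving out P0.5 replicate 3 ended all 3 calls, with Npas3 at -1.33 (edgeR adjusted p = 0.0750). Sox21 was lost as well without E16.5 replicate 1, 3 or 4 or P0.5 replicate 1 (-1.80 to -1.04, edgeR adjusted p = 0.0282 to 0.161 over all plates left out in turn), and Bcl11b without E16.5 replicate 3 or 4 or P0.5 replicate 1 or 2 (-1.68 to -1.18, adjusted p = 0.0200 to 0.153).

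With the stage read from the second plate label all 9 genes changed direction, among them Pax5 at 1.95, Sox21 at 1.04, Bcl11b at 1.21 and Npas3 at 0.90, and none passed (lowest edgeR adjusted p = 0.355). On the 3 VGAT plates whose labels give 1 stage, Pax5 was at 51.7 and 97.3 CPM at E16.5 and at 114.4 CPM at P0.5, and Sox21 at 49.3 and 46.9 CPM against 43.9 CPM. Npas3 was at 1225 and 951 CPM against 752 CPM. Among 10 tested relatives Pou3f3 (-1.06) and Bcl11a (-0.66) were lower at P0.5, with 0 higher, and 2 of 18 tested other regulators passed, both lower, with Tcf7l2 at -1.16. No member's change between stages was compared between the sorts, since the VGAT+Pitx3 sort has 1 plate a stage.

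Single cells were then thinned to 4000 counts each, so that shares of cells with a gene do not follow depth, which left 1408 VGAT cells and left out 52 shallower ones. A gene without a count in a cell may still be expressed there. Pax5 was found in 8.74, 12.7, 25.5 and 23.5% of cells on the E16.5 plates and in 6.98, 19.1 and 5.33% on the P0.5 plates, against 0.669 and 0.402% with Pitx3. Sox21 was found in 2.33 to 19.8% of cells of a VGAT plate and in 0.669 and 1.20% with Pitx3, and Bcl11b in 14.8 to 48.1% against 14.7 and 7.23%. Npas3 was found in 45.0 to 78.9% of VGAT cells and in 29.4 and 21.7% of cells with Pitx3.

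En2 was found in 2.33 to 23.2% of VGAT cells but in 78.6 and 72.3% of VGAT+Pitx3 cells. Pou3f2 was found in 6.98 to 16.7% of VGAT cells and in 33.4 and 16.47% with Pitx3, so that in shares P0.5 lay within the VGAT range. Pax8 (2.19 to 9.30%), Pou3f1 (0 to 7.05%) and Npas1 (2.01 to 6.98%) were each found in few VGAT cells. Npas1 was found in 0 thinned VGAT+Pitx3 cells, with 95% Clopper-Pearson intervals that reach 1.23% on the E16.5 plate and 1.47% on the P0.5 plate. This limits cells with a count at the thinned depth, not cells that express the gene. Without thinning it was found in 1 of 304 and 0 of 271 cells. Without thinning the mean share over VGAT plates rose from 14.6% (SD 8.17, n = 7) to 24.6% for Pax5, from 29.8% (SD 12.5) to 45.6% for Bcl11b and from 10.4% (SD 3.11) to 29.4% for Pou3f2.

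Counts per cell were uneven. Before thinning 389 of 1460 VGAT cells held Pax5, of which 153 had 1 count, 26 had 2 and 210 had 3 or more, up to 71. For Sox21 these numbers were 115, 43 and 160 of 318 cells, and for Bcl11b 172, 93 and 438 of 703 cells. Pou3f2 differed, with 226 of its 438 cells at 1 count and a highest count of 13. For En2 391 of 523 positive VGAT+Pitx3 cells had 3 or more counts, against 174 of 373 positive VGAT cells. Npas3 reached 404 counts in a cell, and 79.7% of its VGAT counts were intronic, against 26.2% for all genes, 40.1% for Pax5 and 23.6% for Bcl11b.

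Co-detection in the thinned VGAT cells was set against the number expected on each plate if the genes were found independently, summed over plates. The cells share their plates, and the counts are a description. Pax5 and Pax8 were found together in 51 cells where 13.6 were expected (3.76 times, above on 7 of 7 plates). Pax5 and Sox21 shared 112 cells against 36.2 (3.09 times, 6 plates), Pax5 and Pou3f1 50 against 13.9 (3.59 times, 6 plates), and Pax5 and En2 106 against 38.8 (2.73 times, 6 plates). Pax5 and Bcl11b shared 147 cells against 89.3 (1.65 times, 7 plates). Without thinning these ratios were lower, at 2.35 for Pax8, 2.14 for Sox21, 1.99 for Pou3f1, 1.96 for En2 and 1.24 for Bcl11b. The sister genes were thus among the most tightly shared pairs, and 71.8% of Pax8 cells held Pax5, while 21.3% of Pax5 cells held Pax8.

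The remaining 3 genes exceeded the expected number on fewer plates. Pou3f2 was found with Pax5 in 30 cells against 28.7 (1.05 times, 4 plates, and 1.64 times with another thinning seed). Npas1 was found with Pax5 in 11 cells against 6.4 (1.71 times, 4 plates), a ratio like that of Bcl11b but from few cells, and in 50 against 28.1 on 6 plates without thinning. Npas3 was found with Pax5 in 168 cells against 173.1 (0.97 times, 2 plates). Npas3 was found in 70.3% of Pax5 cells and in 68.1% of the rest. Among the other pairs Sox21 and Pou3f1 shared 40 cells against 10.3 (3.90 times), Pax8 and Sox21 37 against 10.1 (3.67 times), Pax8 and En2 34 against 10.6, and Pou3f1 and Bcl11b 53 against 25.8 (2.05 times). Of all 36 pairs 17 exceeded the expected number both in the sum and on at least 5 of 7 plates, where 16.2% of all pairs among 11597 entries found in at least 2% of cells did so. Without thinning 31 of 36 did, close to the 79.9% of all pairs, so that this count says little about the 9 genes. The thinned count gives no independent support of the choice of genes, which was made with earlier results of these data known. In cells without Pax5, Pax8 and Sox21 were found together in 4 cells against 1.3, Sox21 and En2 in 11 against 5.6 and Bcl11b and En2 in 24 against 26.7. In cells with Pax5, Sox21 and En2 shared 62 against 52.3 and Pax8 and En2 32 against 22.5.

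**Figure D2:**
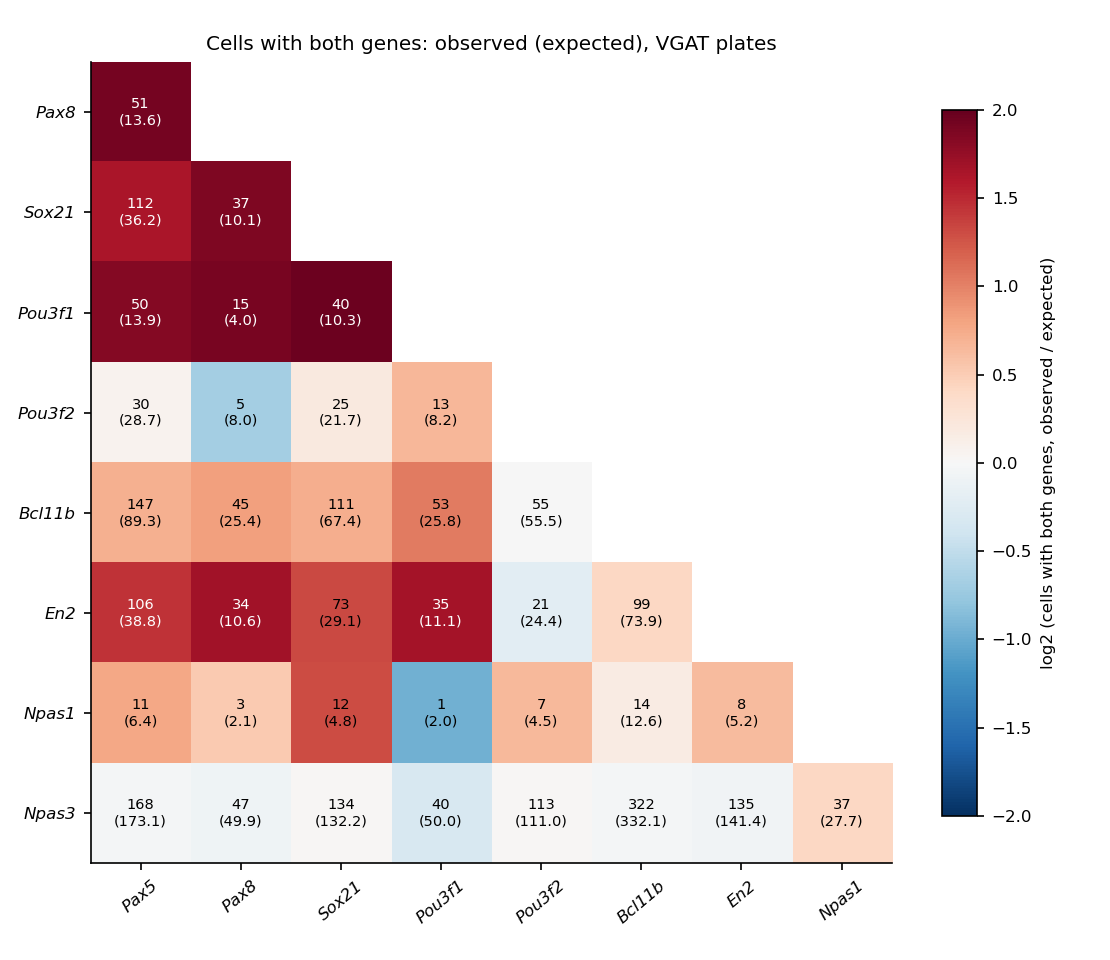
Number of thinned VGAT cells with both genes of each pair and, in parentheses, the number expected from the plates' shares, coloured by the log2 of their ratio (red above, blue below). Pax5, Pax8, Sox21, Pou3f1 and En2 form the dark red block, with 51 cells against 13.6 for Pax5 and Pax8, and 7 of the 8 Npas3 pairs have ratios from 0.80 to 1.02, all but that with Npas1 (1.34).

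The association was seen in cells with 3 or more Pax5 counts. Among thinned VGAT cells, Sox21 was found in 5.74% of 1027 cells with 0 Pax5 counts before thinning (95% Clopper-Pearson interval 4.40 to 7.35%), in 4.64% of 151 cells with 1 (1.88 to 9.32%) and in 55.8% of 206 cells with 3 or more (48.8 to 62.7%). For Pax8 the shares were 1.36, 3.31 and 24.8%, for Pou3f1 1.46, 3.31 and 23.8%, for En2 7.30, 12.6 and 47.6% and for Bcl11b 26.3, 33.1 and 66.0%. The 24 cells with 2 Pax5 counts held Sox21 in 8.33%, Pax8 in 4.17%, Pou3f1 in 0, En2 in 16.7% and Bcl11b in 16.7%, too few cells to place them. Plates differed widely in the class of 3 or more counts, over those with at least 5 such cells, from 0 to 67.1% for Sox21, 0 to 62.3% for En2, 0 to 29.2% for Pou3f1, 16.7 to 40% for Pax8 and 35.7 to 76.7% for Bcl11b. In the pooled cells, those with a single Pax5 count thus lay close to cells with 0 and far from those with 3 or more for these 5 genes. Pou3f2 (10.8, 11.3 and 14.6%) and Npas3 (67.3, 71.5 and 72.8%) differed little between the classes. The median depth before thinning was 16246, 19414 and 19325.5 counts per cell in the 3 classes, and the intervals cover counting error over pooled cells only, not the spread between plates.

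The genes were also counted per cell. Cells with Pax5 held on average 2.82 of the other 8 genes (239 cells) and cells without held 1.26 (1169 cells), with means over cells of a plate of 2.00 to 3.18 and 0.838 to 1.61, higher with Pax5 on 7 of 7 plates. Of cells with Pax5, 6.69% held 0 of the others and 2.93% held 6, the highest number found. Of cells without, 45.8% held 1, and 0.0855% held 6.

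**Figure D3:**
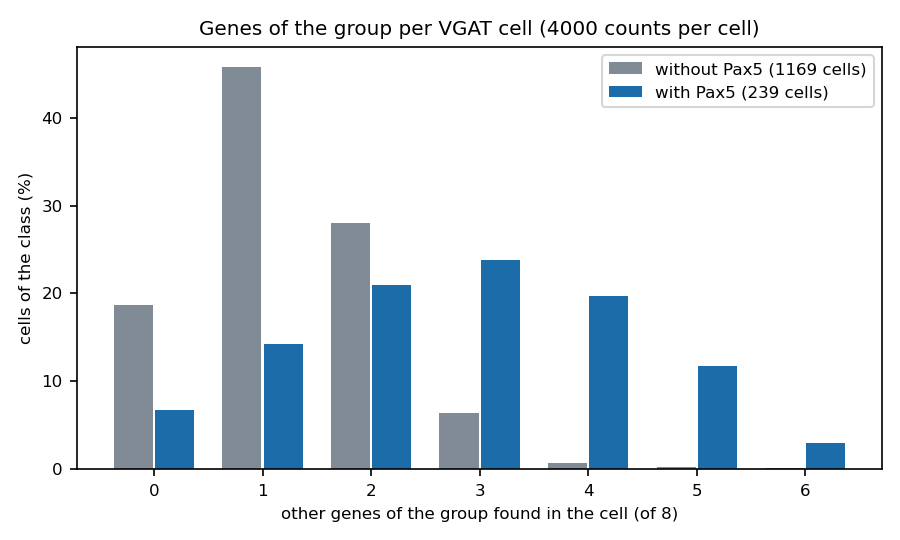
Share of thinned VGAT cells (percent) by the number of the other 8 genes found in the cell, for 239 cells with Pax5 and 1169 without. Cells with Pax5 peak at 3 genes (23.8%) and cells without at 1 (45.8%).

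The Pax5 cell comparison summed the deposited counts of cells with and without a thinned Pax5 count on each plate and tested them in edgeR with the plate as a block, without Pax5 itself. P0.5 replicate 1 held 3 Pax5 cells and was left out, so 6 plates with 236 cells with Pax5 and 1129 without remained. Of 8 genes 6 passed, all higher in Pax5 cells, where 5.23% of 12090 tested genes passed (2.70% higher, 2.52% lower). Since the genes were chosen with earlier results of these data known, this count gives no independent support of the choice. Of the 8 genes 6 were higher on all 6 plates, as were 4.27% of all genes (4.95% were lower on all 6). The median log2 fold change was 2.24 over the 8 genes and 0.00 over all. The median depth per cell on a plate was 8094 to 25785 counts with Pax5 and 7455 to 21767 without.

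Pax8 was at 37.3, 106.6, 93.4 and 96.3 CPM in Pax5 cells of the E16.5 plates and at 70.4 and 79.9 CPM at P0.5, against 1.88 to 9.02 CPM in the other cells, a log2 fold change of 4.31 (SE 0.22, edgeR adjusted p = 6.48e-10). Sox21 was at 190.0, 220.1, 322.4 and 255.9 CPM at E16.5 and 102.6 and 144.8 CPM at P0.5, against 12.9 to 38.6 CPM (3.33, SE 0.23, edgeR adjusted p = 3.83e-08). En2 was at 95.0, 274.1, 232.8 and 235.1 CPM at E16.5 and 140.7 and 109.8 CPM at P0.5, against 11.5 to 48.3 CPM (2.81, SE 0.13, edgeR adjusted p = 1.89e-10). For these 3 genes every plate with Pax5 lay above every plate without. En2 in Pax5 cells stayed below its level of 442.7 to 488.0 CPM in VGAT+Pitx3 cells, a comparison of separately scaled sums that was not tested.

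Pou3f1 was at 71.2, 173.1, 162.0 and 119.7 CPM in Pax5 cells at E16.5 and at 123.1 CPM on P0.5 replicate 2, against 3.96 to 10.8 CPM in the other cells of these plates, and nearly absent on P0.5 replicate 3 (0 and 0.313 CPM). Its fold change was 4.20 (SE 0.22, edgeR adjusted p = 6.48e-10), higher on 5 of 6 plates. Bcl11b was at 189.7 to 851 CPM with Pax5 and at 62.4 to 305.0 CPM without (1.68, SE 0.15, edgeR adjusted p = 1.04e-06), and Npas3 at 1281 to 3895 against 419 to 1333 CPM (1.44, SE 0.11, edgeR adjusted p = 7.61e-08), each higher on 6 of 6 plates with ranges that overlap. Npas3 thus differed in summed level but hardly in the share of cells. Npas1 (1.12, SE 0.33, edgeR adjusted p = 0.0595, higher on 6 of 6 plates) and Pou3f2 (0.51, SE 0.16, edgeR adjusted p = 0.0842, higher on 5 of 6) did not pass. Npas1 passed under 6 of 16 alternatives (with exonic counts alone 1.84, edgeR adjusted p = 0.00120) and Pou3f2 under 4 (with exonic counts alone 0.74, edgeR adjusted p = 0.0191). The 6 calls were kept under each of 16 alternatives.

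**Figure D4:**
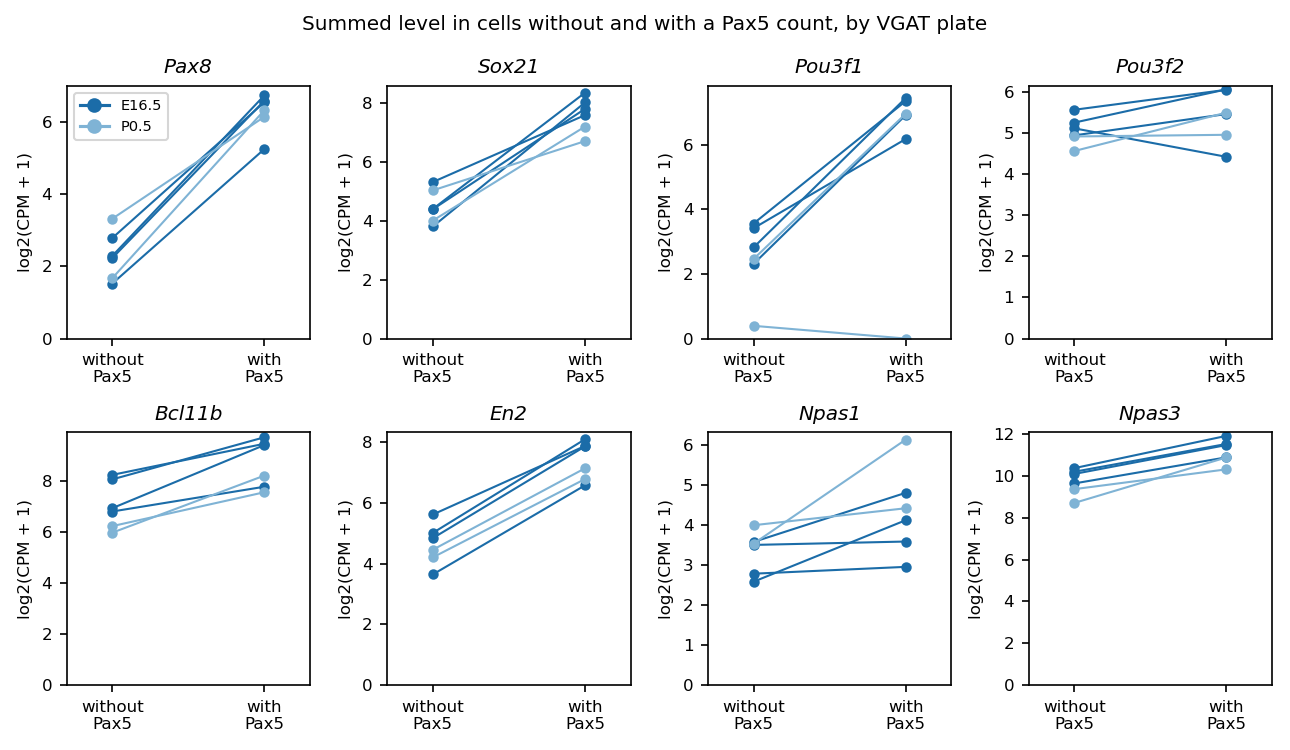
Summed level, log2(CPM + 1), of the other 8 genes in cells without and with a Pax5 count, with 1 line per VGAT plate (dark, E16.5; light, P0.5). Lines rise on all 6 plates for Pax8, Sox21, Bcl11b, En2, Npas1 and Npas3, and on 5 for Pou3f1 and Pou3f2.

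Among 10 tested relatives, En1 (2.55), Pax2 (1.99) and Pou3f3 (1.12) were higher in Pax5 cells, and Sox1 (-1.31), Sox2 (-1.20) and Bcl11a (-0.79) were lower. The Pax2 value rests mainly on E16.5 replicate 3 (47.5 against 11.0 CPM). On the other plates Pax2 was at 0 to 9.98 CPM with Pax5 and 0.313 to 2.41 CPM without, and on E16.5 replicate 1 it was lower with Pax5. Of 18 other regulators 11 were lower, among them Pax7 (-2.68), Meis2 (-2.51), Nr2f1 (-2.46), Nkx2-2 (-2.33), Tcf7l2 (-2.29), Gata2 (-2.12), Six3 (-1.57) and Foxp2 (-1.48), and 1 was higher (Zfpm2, 1.08). Six3 and Foxp2 were not lower on every plate, and each was higher with Pax5 on 1 of 6, P0.5 replicate 2. There Six3 was at 410.4 CPM with Pax5 against 408.8 CPM without, and Foxp2 at 419.2 against 237.5 CPM.

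Cells were also split by Pax5 and by Six3, a homeobox gene of the midbrain-derived SNr group. Of 1408 cells 190 held Pax5 only, 478 Six3 only, 49 both and 691 neither, and shares were averaged over plates with at least 5 cells of the class. En2 was found in 49.8 ± 14.8% of Pax5-only cells (SD, 6 plates) and in 3.25 ± 2.10% of Six3-only cells (7 plates), a difference of 46.0 ± 13.4 points on the same plates, higher on 6 of 6. Sox21 was found in 45.7 ± 14.4 and 4.76 ± 2.96%, Pax8 in 26.3 ± 13.1 and 1.75 ± 2.60%, Pou3f1 in 20.4 ± 12.0 and 2.97 ± 3.10% and Bcl11b in 57.8 ± 19.0 and 24.9 ± 11.6%. Pou3f2 (10.9 ± 6.06 and 11.2 ± 4.48%) and Npas3 (71.8 ± 17.1 and 66.2 ± 12.0%) lay within the spread of plates.

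Cells with both genes, averaged over 4 plates, held Sox21 in 36.6 ± 12.6%, Bcl11b in 45.0 ± 12.4%, En2 in 14.4 ± 13.9%, Pax8 in 8.33 ± 16.7% and Pou3f1 in 7.37 ± 5.68%. Each of these 5 means lay between those of the Six3-only and the Pax5-only cells. The cells with both were few (49), and no test was made between classes.

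**Figure D5:**
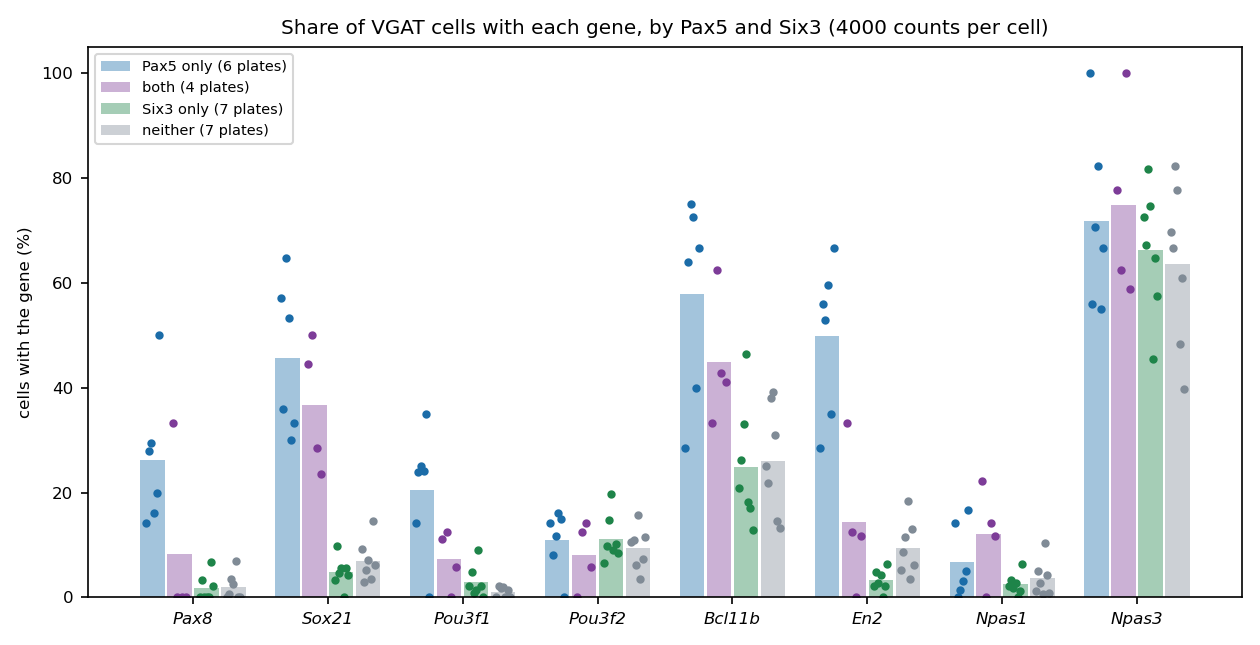
Share of thinned VGAT cells (percent) with each of the 8 genes in cells with Pax5 only, both genes, Six3 only or neither, with a bar at the mean over plates and 1 point per plate with at least 5 cells of the class. En2 stands at 49.8% in Pax5-only and 3.25% in Six3-only cells, whereas Pou3f2 and Npas3 are alike in both.

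Likeness of detection was measured as the mean phi coefficient over VGAT plates, a correlation of presence and absence in cells, over 11596 entries found in at least 2% of cells. The cells of a plate share a library, so phi is a description. Among the entries most like Pax5 were Pax8 (0.383), Sox21 (0.311), En2 (0.300), the synaptic organiser gene C1ql1 (0.291), Pou3f1 (0.273) and En1 (0.256), and Bcl11b ranked 16th (0.198). The other genes were far off, Npas1 at rank 783, Pou3f2 at 1392 and Npas3 at 7808. Seen from the others, Pax5 was the closest entry of all to Sox21, to Bcl11b and to En2. For Pou3f1 the closest was its overlapping antisense gene Gm2164 (0.582, 6 plates), whose reads cannot be told from its own where they overlap, and the next was Pax5 (0.319). For En2 the next was Tmem163 (0.258), and En1 followed (0.231).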

How the data were processed

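Single cells were profiled by plate-based CEL-seq2, in which wells and molecules carry barcodes. The authors aligned reads with STAR to the mouse genome (mm10 per the labels) and deposited expected counts per gene and well for exons, introns and both, as molecules corrected for shared barcodes, with no scaling to depth. Of the non-zero values of both 51.7% were not whole, and 100% lay within 0.001 of the correction for 6 barcode bases. The strand setting is not given in the sources used here.

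Wells were kept as stated in the report, 92 spike-in and 34 mitochondrial entries were then dropped, and counts were rounded after summing by plate (by cell for shares). The quasi-likelihood test of edgeR 4.0.16 (R 4.3.3) was run after filterByExpr and TMM scaling, with Benjamini-Hochberg adjustment over all genes and a threshold of 0.05, with stage and population over 9 plates, stage over 7 VGAT plates, and Pax5 class with a plate block over 6. Cells were thinned to 4000 counts for shares. Figures and tables used Python 3.11.15, matplotlib 3.10.9, pandas 2.3.3, numpy 2.4.6 and scipy 1.17.1.

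The genes named are the 9 members, relatives and lineage regulators on lists, and the entries most like Pax5, Sox21, Bcl11b, Pou3f1 and En2 in detection. Members and lists were chosen with earlier results of these data known, and some entries are not reported here. Marker genes of cell types were taken as levels per plate, and no clusters were made. The split by Pax5 count and the shares over all gene pairs were added after the data had been seen. Alternatives were DESeq2 1.42.0, RLE factors, no low-count filter, exonic counts, a limit of 2 times the median count, 8000 counts or no thinning, another seed, the replicate number as a block and each plate left out, and, added after seeing the data, the stage of the second plate label.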

Additional observations from a re-analysis of the deposited data

Results flagged for a closer look

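Of 58 groups of 4 to 10 plates looked at, 2 held a plate far from the others, where chance gives about 1 in 20. Pax8 was found in 3.28% of Six3-only cells on VGAT E16.5 replicate 2 and in 0 of those on the other E16.5 plates. Pou3f1 was found in 14.3% of Pax5-only cells on VGAT E16.5 replicate 1, with 24.0 to 25.0% on the other E16.5 plates. Both rest on few cells. Of 17 pairs of effects at the 2 stages, 0 were opposite on all plates.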

How the results depend on the processing

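The 1306 genes called between populations ranged from 625 to 1397 with each plate left out (625 without the VGAT+Pitx3 plate of E16.5, 866 without that of P0.5) and were 994 with the second stage label. The 624 called between stages were 944 with DESeq2, 1588 with no filter on low counts, 226 with the replicate block and 1 with the second label, and ranged from 76 to 833 with each plate left out, lowest without P0.5 replicate 3. The 632 called between Pax5 classes were 242 with no replicate block (plate term dropped), 376 classed without thinning, 392 with thinned counts summed and 362 to 635 with each plate left out, lowest without E16.5 replicate 3. Genes found in at least 10% of VGAT cells were 6, and 3 to 6 with each plate left out, 3 without E16.5 replicate 4. Pairs above expectation were 17, 31 without thinning and 12 to 16 with each plate left out.

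Pou3f1 changed direction between populations, at -0.057 with DESeq2 and -0.65 without cells of over 2 times the median count. With each plate left out it ran from -0.20 (P0.5 replicate 3) to 0.34 (P0.5 replicate 2). With the stage of the second plate label, chosen after seeing the data, all 9 genes changed direction between stages: Pax5 1.95, Pax8 1.26, Sox21 1.04, Pou3f1 1.27, Pou3f2 0.52, Bcl11b 1.21, En2 1.12, Npas1 -0.26 and Npas3 0.90. The causes were not tested. En2 passed between stages without E16.5 replicate 1 (-1.38, edgeR adjusted p = 0.0221), and Bcl11b lost its call between populations with the second label (-2.17, edgeR adjusted p = 0.0815). With no filter on low counts Pax5, Pou3f1, Pou3f2 and En2 passed between stages. Sox21 and Bcl11b lost their stage calls with DESeq2 (adjusted p = 0.0843 and 0.0658). Over all alternatives for single genes, pairs and shares, 941 values were kept and 42 moved. Among fold changes 23 lost and 15 gained a call and 13 changed direction. Fold changes were kept with the same direction and side of the threshold. Pair ratios, shares and their differences were kept with a shift no larger than the spread between plates, and otherwise moved.

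Replicate numbers of the 2 stages did not pair the plates, since deviations of plates with the same number correlated at 0.033, 0.025 and 0.032. With the replicate number as a block, the count of genes called between populations fell to 914, and that between stages to 226. The floor of 3 counts, 0.555 to 2.09 CPM on a plate, limits what can be said of Pax8 and Npas1 on VGAT+Pitx3 plates.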
